A study of Mus musculus with 8 samples.

Results

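Of the 5282 HDAC1 peaks mapped on chromosomes 1 to 19 and X in day 2 cells, 295 (5.59%, 95% Wilson interval 5.0 to 6.24%) overlapped no peak of acetylated histone H3 (H3ac) on day 2 but overlapped one on day 4 or day 6. These 295 late-acetylated HDAC1 sites were chosen from the peak calls themselves, by an overlap of at least 1 bp, so the absence of a day 2 peak and the presence of a later one are their definition and not a result. Mouse embryonic stem cells (129/Ola strain) had been left to differentiate in N2B27, a medium without serum, on gelatin, and were taken on days 2, 4 and 6. HDAC1 was mapped on day 2 as a 3 FLAG-HDAC1 protein with an antibody sold by Sigma, and the sources used here do not say how the tagged protein was introduced. H3ac was mapped on each day with a Millipore antibody. There was 1 chromatin immunoprecipitation (ChIP) library and 1 input library for each target and day, with no replicates, so no difference between days has a replicate check. Intervals cover counting error over peaks only, and neighbouring peaks are not independent. On these chromosomes 17357, 12943 and 5549 H3ac peaks were called on days 2, 4 and 6, of median width 591, 792 and 1898 bp. They give no read depth, so a site without a peak can still be acetylated below the calling threshold. As a check of the labelled cell type, 16 of 25 pluripotency genes carried day 2 H3ac at 1 of their ends or less than 1 kb from it, as did 41.0% of all protein-coding genes. The counts were 11 of 14 primed epiblast, 12 of 38 neural progenitor, 3 of 21 neuron, 4 of 26 mesendoderm, 3 of 12 neural crest, 1 of 23 trophoblast and extraembryonic endoderm and 1 of 12 haematopoietic and endothelial genes.

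HDAC1 is a class I histone deacetylase that removes acetyl groups from histone tails as the catalytic subunit of the Sin3, NuRD and CoREST complexes. It is known as a corepressor, and it is also found at active promoters, where acetylation is written and erased in cycles. Acetylated H3 marks active promoters and enhancers, and its nucleosomes usually flank a transcription start site on both sides of a nucleosome-poor gap.

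The sites ranged from adjacent to day 2 acetylation to far from it, and the start-site sequences below show both ends of that range. From the late-acetylated sites whose HDAC1 peak covered at least 50 of the 150 bases upstream of the nearest annotated start (72 sites), the first 3 below lay closest to a day 2 H3ac peak and the next 3 lay farthest from one. The last 3 are those with the highest later H3ac score among the other sites with a match to the ETS letters CCGGAAG. Each line gives the 150 bases just before the start, 5′ to 3′ in the direction of the gene, from RefSeq (GRCm38.p6, the assembly of mm10). Capitals mark matches on either strand to any of the 16 motifs that were searched.
Pla2g15 (chr8:106150204-106150353, plus strand, 1 bp from day 2 H3ac): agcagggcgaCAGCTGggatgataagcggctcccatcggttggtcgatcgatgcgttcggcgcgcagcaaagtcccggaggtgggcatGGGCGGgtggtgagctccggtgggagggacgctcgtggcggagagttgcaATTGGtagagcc
Mrps17 (chr5:129715347-129715496, plus strand, 2 bp): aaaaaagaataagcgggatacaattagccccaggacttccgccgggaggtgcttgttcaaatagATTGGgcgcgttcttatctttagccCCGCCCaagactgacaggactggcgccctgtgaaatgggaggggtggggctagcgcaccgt
Ecd (chr14:20348122-20348271, minus strand, 6 bp): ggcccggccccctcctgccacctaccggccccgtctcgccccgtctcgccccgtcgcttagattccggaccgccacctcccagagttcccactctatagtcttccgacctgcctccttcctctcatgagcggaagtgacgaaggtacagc
Aopep (chr13:62964743-62964892, plus strand, 179287 bp): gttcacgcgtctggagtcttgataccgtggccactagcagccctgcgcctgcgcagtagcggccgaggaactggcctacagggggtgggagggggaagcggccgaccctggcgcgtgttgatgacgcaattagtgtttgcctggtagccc
Mrpl3 (chr9:105053118-105053267, plus strand, 589257 bp): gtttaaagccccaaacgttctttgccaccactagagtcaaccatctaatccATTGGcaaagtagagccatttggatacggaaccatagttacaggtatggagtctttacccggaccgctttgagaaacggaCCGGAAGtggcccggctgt
Elavl2 (chr4:91376471-91376620, minus strand, 2065047 bp): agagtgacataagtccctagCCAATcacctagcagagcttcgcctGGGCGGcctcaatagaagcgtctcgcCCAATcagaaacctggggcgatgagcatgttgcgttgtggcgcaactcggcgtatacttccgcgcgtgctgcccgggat
Zc3h15 (chr2:83644428-83644577, plus strand, 437 bp): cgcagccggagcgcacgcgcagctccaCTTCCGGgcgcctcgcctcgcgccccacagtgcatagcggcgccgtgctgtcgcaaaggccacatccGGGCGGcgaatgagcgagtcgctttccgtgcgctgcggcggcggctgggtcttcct
Polq (chr16:37011636-37011785, plus strand, 135647 bp): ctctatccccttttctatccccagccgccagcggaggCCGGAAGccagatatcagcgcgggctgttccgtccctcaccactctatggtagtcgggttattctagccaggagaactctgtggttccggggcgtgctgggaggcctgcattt
Mrpl58 (chr11:115403602-115403751, plus strand, 8840 bp): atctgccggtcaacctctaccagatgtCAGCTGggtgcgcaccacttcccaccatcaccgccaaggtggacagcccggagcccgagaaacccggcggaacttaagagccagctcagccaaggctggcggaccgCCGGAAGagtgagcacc
A distance of 1 bp means that the HDAC1 peak and the day 2 H3ac peak were adjacent. The Ecd and Aopep stretches held no match, and the ETS letters stood at Mrpl3, Zc3h15, Polq and Mrpl58. Matches were to exact letters, so variants of a motif that differ by 1 letter were not counted.

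The first question was how far these sites lay from day 2 acetylation. A day 2 H3ac peak lay within 1 kb of 163 of the 295 sites (55.3%, 49.5 to 60.8%), and within 100 bp of 47. The median distance was 659 bp. This share depended on the day 2 list: it was 32.4% with the higher-scoring 50% of day 2 peaks, and 24.9% with equal numbers of the highest-scoring H3ac peaks from each day. Among all 3818 HDAC1 peaks that overlapped no day 2 H3ac peak, 9.93% had one within 1 kb. Among the 3523 HDAC1 peaks without H3ac on any day the share was 6.13% (5.39 to 6.97%), which is 49.1 points lower (interval of the difference 43.4 to 54.7), and the median distance was 40882 bp. Within one location the shares also differed. At gene ends 57.1% (50.1 to 63.8%) of late-acetylated sites and 22.5% (18.7 to 26.7%) of HDAC1 peaks without H3ac had a day 2 peak within 1 kb, and in gene bodies the shares were 58.3% and 5.38%. The rule itself bears on these differences, since only the late-acetylated sites must lie under a later H3ac peak. Of all day 4 and day 6 H3ac peaks, 63.9% and 79.6% overlapped day 2 H3ac. Beyond 10 kb from any day 2 H3ac peak lay 81 sites, and 51 lay between 1 and 10 kb.

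**Figure D1:**
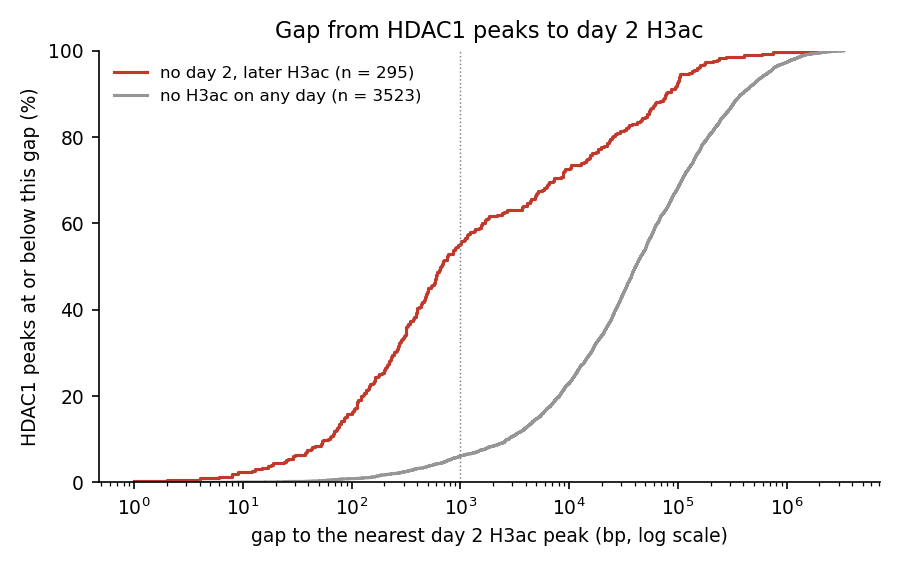
Share of HDAC1 peaks (vertical axis, %) whose nearest day 2 H3ac peak lies at or below a given distance (horizontal axis, bp, log scale), for the 295 late-acetylated sites in red and the 3523 HDAC1 peaks without any H3ac in grey. The dotted line marks 1 kb, which 55.3% of the late-acetylated sites and 6.13% of the others lay within.

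Day 2 acetylation stood on one side of the HDAC1 peak at 149 sites and on both sides at 14. Of the 103 sites that lay both within 1 kb of an annotated transcription start and within 1 kb of day 2 H3ac, the nearest day 2 peak lay downstream in the direction of transcription at 57, upstream at 36, and day 2 peaks lay on both sides at 10. The 163 nearest day 2 peaks were not the weak end of their list: their median score was 95.65, against 80.19 for the whole day 2 list, and 60.1% of them were above that median. The score is the authors' value for a peak and is compared here only within its own list.

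**Figure D2:**
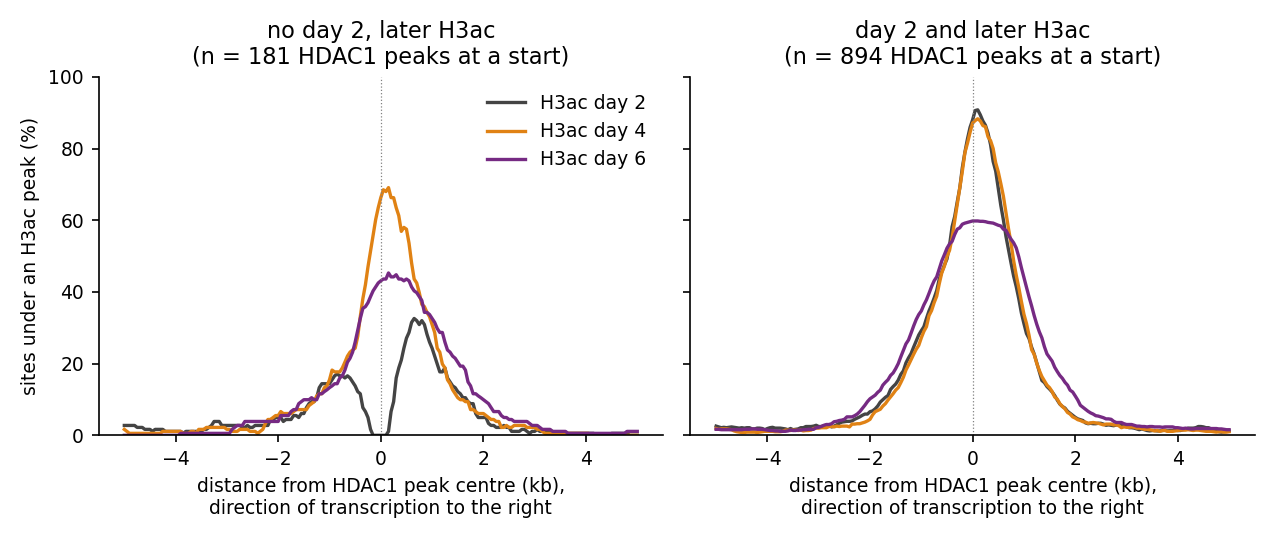
Share of HDAC1 sites (vertical axis, %) that lie under an H3ac peak of day 2, 4 or 6 at each distance from the HDAC1 peak centre (horizontal axis, kb, transcription to the right), for 181 late-acetylated sites (left) and 894 sites with day 2 and later H3ac (right), all within 1 kb of a start. On the left the day 2 curve is 0 at the centre by the choice of sites and is highest at 650 bp, with 32.6%, and on the upstream side at -850 bp, with 17.1%.

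The next question was whether the later H3ac peak at each site reached back to day 2 acetylation. At 123 of 295 sites (41.7%, 36.2 to 47.4%) a later peak over the HDAC1 site also overlapped a day 2 H3ac peak. With the higher-scoring 50% of day 2 peaks this fell to 25.7% of sites, and with lists of equal length to 22.2%. With all peaks the share was 28.4% (22.9 to 34.5%) of the 229 sites with day 4 H3ac and 60.4% (52.4 to 67.9%) of the 149 sites with day 6 H3ac. Over the whole lists, 63.9% of day 4 peaks and 79.6% of day 6 peaks overlapped a day 2 peak. Those are shares of peaks and not of sites. The sites were also chosen to overlap no day 2 peak, which can lower their share. Later peaks over the sites were 816 bp wide on day 4 and 2006 bp on day 6 (medians), and the part of peak width in the difference between days was not tested. Of the remaining 172 sites, 45 had a day 2 peak within 1 kb that the later peak did not reach, 46 had one between 1 and 10 kb away, and 81 had none within 10 kb.

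By day, 146 sites had H3ac on day 4 alone, 66 on day 6 alone and 83 on both. In all, 229 of the 295 sites had day 4 H3ac and 149 had day 6 H3ac. Of the 1204 HDAC1 sites with day 2 and later H3ac, 1128 had day 4 H3ac and 723 had day 6 H3ac. The day 4 list was longer than the day 6 list (12943 against 5549 peaks). The part of list length in the count for day 4 alone was not tested. Sites on day 4 alone had a day 2 peak within 1 kb in 47.3% (39.3 to 55.3%), sites on day 6 alone in 59.1% (47.0 to 70.1%) and sites on both days in 66.3% (55.6 to 75.5%). Sites near day 2 acetylation within 1 kb had H3ac on both later days in 33.7% (26.9 to 41.3%), those between 1 and 10 kb in 17.6% (9.57 to 30.3%) and those beyond 10 kb in 23.5% (15.6 to 33.8%), and these intervals overlap. Late-acetylated sites were less often central in the later peak than HDAC1 sites with day 2 and later H3ac. Of sites with day 4 H3ac, 43.2% (37.0 to 49.7%) had their midpoint in the central 50% of the day 4 peak, against 55.0% (52.0 to 57.8%) of the others. On day 6 the shares were 50.3% (42.4 to 58.3%) and 76.2% (73.0 to 79.2%). The choice of sites bears on this, since a site whose edge alone touches a peak is more likely to miss the day 2 peak.

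The threshold was close for some sites. Just inside, Pla2g15, Mrps17 and Kti12 lay 1, 2 and 4 bp from day 2 H3ac, and sites near Birc6, Zfyve1 and Rab39 overlapped a later peak by 1, 2 and 16 bp. Just outside, HDAC1 peaks near Tspan5, Mcmbp and H1f3 overlapped a day 2 peak by 1, 2 and 2 bp, and HDAC1 peaks near Trappc3l, Mtor and Gad2, without any H3ac overlap, lay 2, 3 and 7 bp from a later one. In all, 23 sites overlapped later H3ac by at most 100 bp.

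Late-acetylated sites lay mainly at gene ends. The peak midpoint was at a gene end, meaning 1 kb or less from either end of a protein-coding gene, in 198 of 295 cases (67.1%, 61.6 to 72.2%), in a gene body in 72 (24.4%) and outside protein-coding genes in 25 (8.47%). Of all HDAC1 peaks, 32.7% lay at gene ends. HDAC1 sites with day 2 and later H3ac were at gene ends in 80.3%, a difference of -13.2 points (-19.1 to -7.58). The late-acetylated share was 55.1 points above that of HDAC1 peaks without H3ac (12.0%, interval of the difference 49.5 to 60.3). It was 13.3 points above that of sites with day 2 H3ac alone (53.8%, 5.13 to 21.2). The choice of sites bears on this share, since later H3ac peaks are themselves frequent at gene ends. By distance from day 2 H3ac, sites were at gene ends in 69.3% (61.9 to 75.9%) of the 163 within 1 kb, 54.9% (41.4 to 67.7%) of the 51 between 1 and 10 kb and 70.4% (59.7 to 79.2%) of the 81 beyond 10 kb, with overlapping intervals. No site lay on the X chromosome, which held 24 HDAC1 peaks, too few to read an absence when 5.59% of all HDAC1 peaks were such sites.

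**Figure D3:**
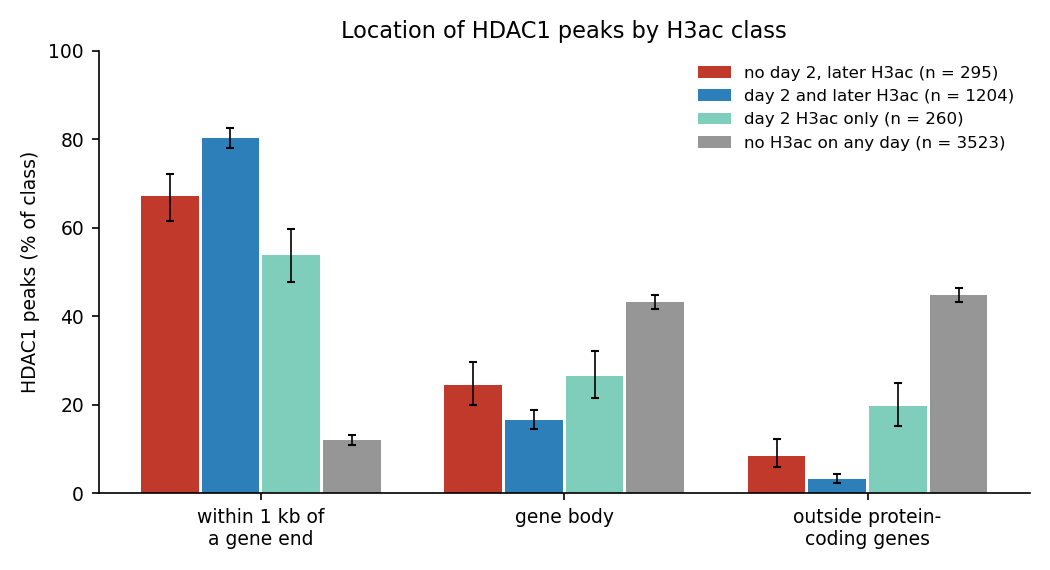
Share of HDAC1 peaks in each H3ac class (vertical axis, % of class, with 95% Wilson intervals as error bars) by location of the peak midpoint (horizontal axis). Late-acetylated sites, in red, were at gene ends in 67.1%, below the 80.3% of sites with day 2 and later H3ac and above the 12.0% of sites without H3ac.

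Annotated starts with their strand were at hand for 285 of the sites, and 181 (63.5%, 57.8 to 68.9%) lay within 1 kb of one. HDAC1 sat mostly just inside the gene: 116 of the 181 midpoints (64.1%, 56.9 to 70.7%) were downstream of the start, and the median offset was 96 bp downstream. For HDAC1 sites with day 2 and later H3ac the downstream share was 74.3% (71.3 to 77.0%) and the median offset 139 bp. Of the sites within 1 kb of a start, 42 of the 54 beyond 10 kb from day 2 H3ac and 57 of the 103 within 1 kb of it were downstream of the start.

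HDAC1 scores at these sites were near those of the other classes. Their median HDAC1 score was 63.78, against 65.84 at sites with day 2 and later H3ac and 65.31 at sites without H3ac. Of the late-acetylated sites, 7.12% were in the highest-scoring 10% of HDAC1 peaks, against 11.2% of the sites without H3ac. The share was 7.89% for sites with day 2 and later H3ac and 7.69% for sites with day 2 H3ac alone. The median width of late-acetylated sites was 309 bp. Another HDAC1 peak lay within 2 kb of 30 sites, and at 18 of these one such neighbour overlapped day 2 H3ac.

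Later H3ac peaks less often held HDAC1 where day 2 acetylation had not been called. Of the 4676 day 4 H3ac peaks without day 2 overlap, 175 (3.74%, 3.24 to 4.33%) overlapped a day 2 HDAC1 peak, against 14.0% (13.3 to 14.7%) of the 8267 with day 2 overlap, a difference of -10.2 points (-11.2 to -9.31). On day 6 the shares were 5.21% (4.06 to 6.66%) and 16.6% (15.5 to 17.7%). Peaks without day 2 overlap were narrower, with a median width of 588 bp without and 738 bp with HDAC1 on day 4, against 920 and 1085.5 bp for those with day 2 overlap, and the part of width was not tested. Among day 4 peaks without day 2 overlap, those over HDAC1 were at gene ends in 70.9% (63.7 to 77.1%) and those without HDAC1 in 36.8% (35.4 to 38.3%), a difference of 34.0 points (26.8 to 40.4). On day 6 the shares were 71.2% and 50.7%, a difference of 20.5 points (7.62 to 30.9).

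Start windows under late-acetylated sites were mostly CpG-rich, somewhat less often than those under HDAC1 sites with day 2 and later H3ac. RefSeq windows of 300 bases, from 250 before to 50 after a start, were under a late-acetylated site in 122 cases (117 genes). Their median ratio of observed to expected CpG was 0.80, against 0.84 in 645 windows under HDAC1 sites with day 2 and later H3ac, 0.68 in 154 under HDAC1 sites without H3ac and 0.57 in all 21020 windows. A ratio of at least 0.6 was found in 85.2% (77.9 to 90.5%) of the late-acetylated windows. The share was 65.6% (57.8 to 72.6%) in those without H3ac, a difference of 19.7 points (9.47 to 29.0). In windows with day 2 and later H3ac it was 91.3% (88.9 to 93.3%). The late-acetylated share minus theirs was -6.07 points (-13.7 to -0.322). Median GC content was 60.7% in the late-acetylated windows and 61.5% in those without H3ac.

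The ETS letters were more frequent at HDAC1-bound starts with later acetylation than at those without any. CCGGAAG, the core that ETS-family factors bind, stood on either strand in 37 of 122 late-acetylated windows (30.3%, 22.9 to 39.0%), as shown above for Polq and Mrpl3. It stood in 11.7% (7.52 to 17.7%) of windows under HDAC1 sites without H3ac and in 11.7% of all windows. The difference between HDAC1 windows with later H3ac and without any was 18.6 points (9.05 to 28.2). Within windows with a CpG ratio of at least 0.6 the shares were 33.7% and 16.8%, 16.8 points apart (4.92 to 28.1). Windows under HDAC1 sites with day 2 and later H3ac held it in 35% (31.5 to 38.8%), and the late-acetylated share minus theirs was -4.71 points (-13.1 to 4.66). Late-acetylated windows within 1 kb of day 2 H3ac held it in 20 of 72 cases (27.8%, 18.8 to 39.0%) and the others in 17 of 50 (34.0%, 22.4 to 47.8%). A match describes the sequence and does not show a bound factor.

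Of 32 such differences (16 motifs against 2 classes), 3 had an interval without 0. Beside ETS they were the RFX half-site GTTGCC, in 8.20% of late-acetylated windows and 23.4% of those without H3ac, and the GC box GGGCGG, bound by Sp and Klf factors, in 70.5% against 58.1% of windows with day 2 and later H3ac. The GC box was about as frequent in windows without H3ac, at 68.8%, and the late-acetylated share minus theirs was 1.66 points (-9.31 to 12.3). For the RFX half-site the share with day 2 and later H3ac was 13.3%, and the late-acetylated share minus it was -5.14 points (-9.79 to 1.55). The GC box stood in 46.6% of all windows and the RFX half-site in 12.3%. The intervals were not adjusted for the 32 comparisons. For the 13 other motifs neither interval excluded 0. They were CCAAT, the NF-Y box (44.3% of late-acetylated and 38.5% of all windows), the TATA box TATAAA (5.74% and 12.7%), the E-boxes CACGTG (10.7% and 7.91%) and CAGCTG (13.9% and 15.7%), the cAMP response element TGACGTCA (4.92% and 2.26%), the NRF1 core (0.820% and 1.34%), the YY1 letters AAGATGGC (5.74% and 3.06%), the octamer ATTTGCAT (0.820% and 1.68%), the SOX core ACAAAG (16.4% and 16.9%), the amino acid response element core TGATGCAA (0 and 0.852%), the AP-1 letters TGAGTCA (2.46% and 4.69%), the TEAD letters GGAATG (13.9% and 13.5%) and the homeodomain core TAATTA (2.46% and 4.48%). No motif here contains another.

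**Figure D4:**
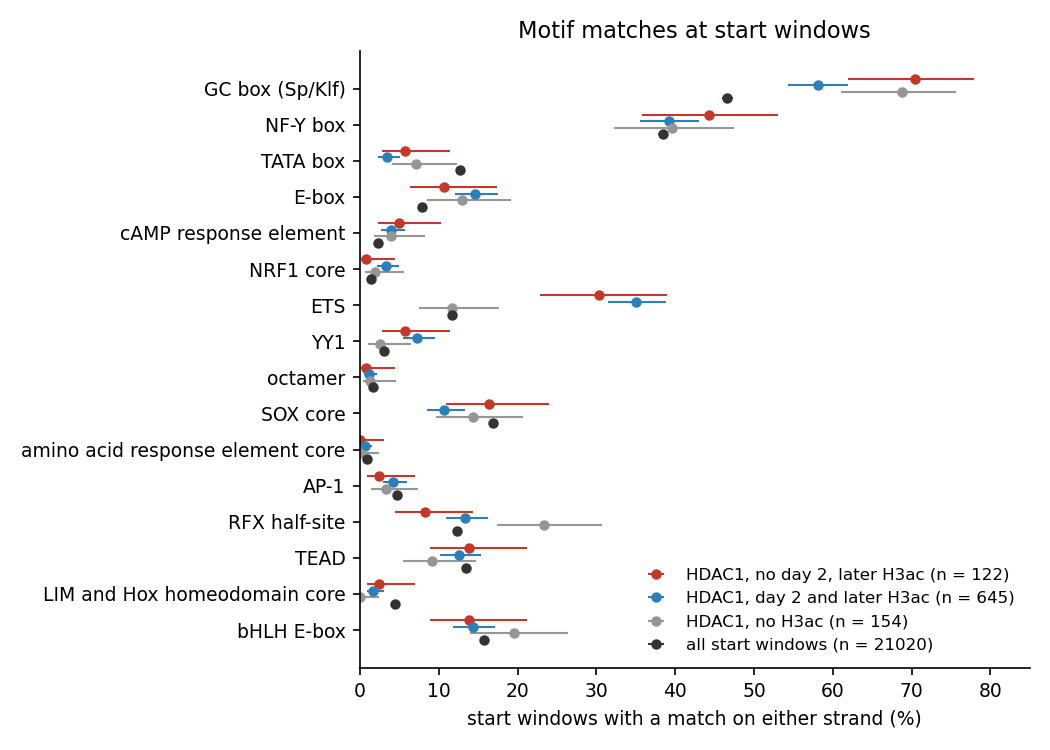
Share of 300-base start windows with a match to each of 16 motifs on either strand (horizontal axis, %, with 95% Wilson intervals), for windows under late-acetylated HDAC1 sites (red), HDAC1 sites with day 2 and later H3ac (blue), HDAC1 sites without H3ac (grey) and all windows (black). The ETS row shows the red and blue points at 30.3% and 35%, apart from the grey and black points at 11.7%.

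The farthest sites from day 2 acetylation included those at Elavl2 and Mrpl3, and Polq is shown beside them. Elavl2 encodes an RNA-binding protein of neurons. Its site on chromosome 4 (91376318 to 91376584, HDAC1 score 50, the lowest in the list) was centred 19 bp inside an annotated start within the gene. The nearest day 2 H3ac peak was 2065047 bp away. The site overlapped H3ac peaks of score 72.28 on day 4 and 194.84 on day 6. Mrpl3, which encodes a protein of the mitochondrial ribosome, had a site 28 bp inside its start on chromosome 9 (105053131 to 105053462, HDAC1 score 52.11), 589257 bp from day 2 H3ac, with later scores of 179.38 and 247.73. Polq, the gene of DNA polymerase theta, had a site 14 bp inside its start on chromosome 16 (37011652 to 37011948), 135647 bp from day 2 H3ac, with a day 4 peak of score 326.02 and no day 6 peak over it. At these 3 starts HDAC1 was called on day 2 with no day 2 H3ac peak for over 100 kb around.

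**Figure D5:**
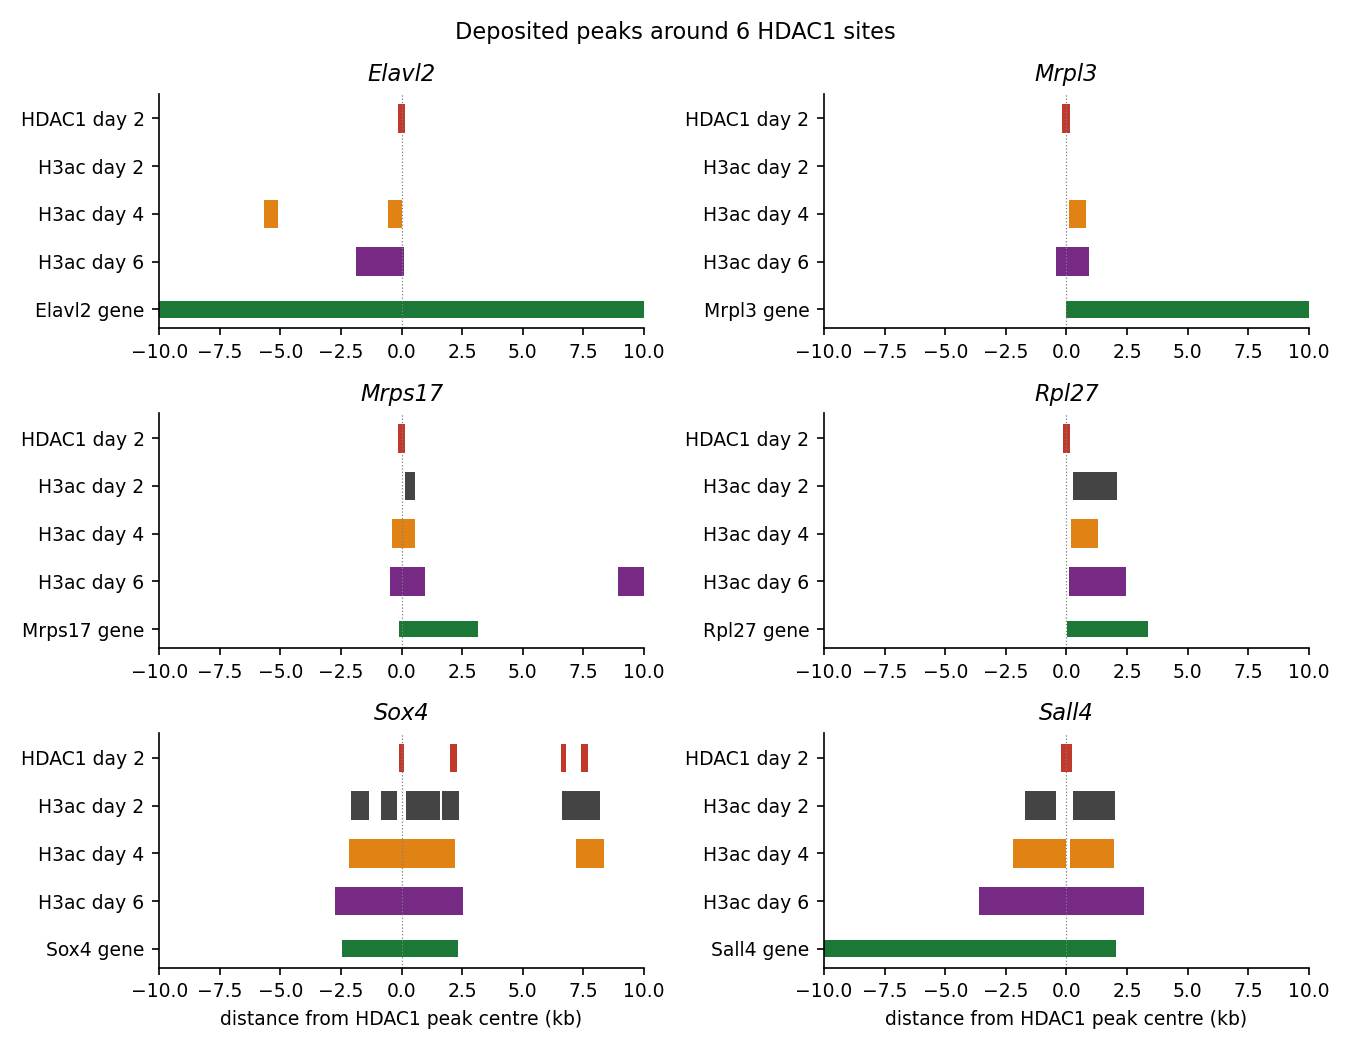
Deposited peaks of HDAC1 and of H3ac on days 2, 4 and 6 (rows) and the named gene (green) against distance from the HDAC1 peak centre (horizontal axis, kb) at 6 sites. Elavl2 and Mrpl3 have no day 2 H3ac peak in view, while at Mrps17, Rpl27, Sox4 and Sall4 day 2 H3ac lies 2, 111, 65 and 76 bp from the HDAC1 site.

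Sites at Lfng, Ier5, Atf3 and Klf5 also lay beyond 10 kb. Lfng, a glycosyltransferase that tunes Notch receptors, had a site 692 bp inside its start and 23511 bp from day 2 H3ac (chromosome 5, 140607881 to 140608186, HDAC1 score 71.03), with a day 4 peak of score 259.05. Ier5, an immediate early gene, had a site 60294 bp from day 2 H3ac with later scores of 493.16 (day 4, rank 341) and 122.24 (day 6). Atf3, a stress-induced transcription factor gene, had a site 41971 bp away with a day 4 peak of score 107.93. Klf5, a pluripotency factor gene, had a site on chromosome 14 (99299417 to 99299686) 79196 bp away, and its day 6 peak scored 50.34, near the lowest score of 50.

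At several developmental regulators the site lay in a gap beside day 2 acetylation within the same locus. Sox4, a SoxC transcription factor of progenitors and neurons, had an HDAC1 site within the gene on chromosome 13 (28951277 to 28951490) that lay 65 bp from a day 2 H3ac peak of score 329.40. The later peaks spanned the gap, with scores of 783.66 on day 4 (rank 72) and 555.58 on day 6 (rank 208) and widths of 3843 and 5279 bp. Sall4, a zinc-finger factor of pluripotent cells, had a site 76 bp from a day 2 peak of score 548.07, and its day 6 peak was 6767 bp wide. Its day 4 peak (168765296 to 168767109) covered only the edge of the site, which ended at 168765350, and nearly matched the day 2 peak (168765426 to 168767134). Fzd2, a Wnt receptor gene, had one 135 bp from a day 2 peak of score 93.03, under a day 4 peak of score 720.07 (rank 96). Meis2, a partner of Hox proteins, had a site 24 bp from a day 2 peak of score 51.79, with later scores of 267.64 and 224.30. At each of these 4 genes at least 1 later peak also overlapped a day 2 peak.

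A gene of neural microRNA was among the sites outside protein-coding genes. An HDAC1 site on chromosome 2 (180894285 to 180894596, score 53.81) lay within 1 kb of Mir124a-3, a gene of miR-124, which is abundant in neurons. A day 2 H3ac peak of score 81.24 lay 494 bp away, and the site was under peaks of score 165.03 on day 4 and 162.43 on day 6. The day 4 peak there overlapped no day 2 peak, and the day 6 peak, 4850 bp wide, did. Malat1, a nuclear long noncoding RNA gene, held the highest-scoring later peak over any site, of score 1384.89 and rank 8 on day 4, with day 6 score 966.50 (rank 37). Its HDAC1 site on chromosome 19 (5798600 to 5799056) lay 1350 bp from a day 2 peak of score 688.12.

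Of the 10 sites with the highest HDAC1 scores, 8 had a day 4 H3ac score below the median of the day 4 list, 101.61. The site at an end of Glra1, a glycine receptor gene, on chromosome 11 (55607769 to 55608122) scored 1211.63, rank 35 of all HDAC1 peaks, and Cd300e, an immunoglobulin-like receptor gene of myeloid cells, had one of 624.16. Their day 4 H3ac peaks scored 104.90 and 50.95. The other 8 of the 10 highest HDAC1 scores, from 157.20 to 222.81, were at Fbxw9, Cda, Gabarapl2, Zswim8, Synj1, Ddx55, Cops7b and Chrna3. Day 4 scores at these 8 ran from 54.41 (Cda) to 136.33 (Cops7b), and Synj1 and Zswim8 alone also had day 6 H3ac, of score 225.98 and 70.32.

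Most of the highest later scores were found near day 2 acetylation. Of the 10 sites with the highest day 4 scores, Ier5 lay beyond 10 kb from a day 2 peak and Malat1 lay 1350 bp away. The other 8, at Sox4, Fzd2, Pim1, Sall4, Ddr1, Epb41l4a, Ndufa6 and Tob2, lay between 65 and 593 bp from one. Of 8 sites with high day 6 scores, those at Malat1 and Mfsd14a lay 1350 and 2673 bp from day 2 H3ac. The other 6, at Msl1, Sox4, Rpl27, Adnp, Zc3h15 and the noncoding gene B330016D10Rik, lay within 65 to 437 bp. Msl1 encodes a subunit of a histone H4 acetyltransferase complex, and its day 6 peak scored 966.92 (rank 36). Rpl27, a ribosomal protein gene, had a day 2 peak of score 834.22 lying 111 bp from the HDAC1 site, and its day 6 peak, of score 515.51, also overlapped that day 2 peak. That day 6 peak began at 101442322 and covered only the edge of the site, which ended at 101442364. Over all sites the median scores did not follow distance in order. The median day 4 score was 108.15 within 1 kb of day 2 H3ac, 85.64 between 1 and 10 kb and 105.52 beyond 10 kb, and the median day 6 scores were 144.66, 178.86 and 99.84.

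Across protein-coding genes, 252 of 21631 (1.16%) had a late-acetylated site at an end, here with any base of the HDAC1 peak 1 kb or less from it. Of these 252, 159 (63.1%, 57.0 to 68.8%) also had day 2 H3ac at an end, against 41.0% of all protein-coding genes and 83.2% (81.4 to 84.9%) of 1805 genes with another HDAC1 peak at an end. The contrast with the 1805 genes is partly set by the rule. Late-acetylated sites overlap no day 2 H3ac, while the other HDAC1 peaks include those that do. In 22 gene lists of 482 distinct genes, 8 genes (1.66%) had such a site, close to the share of all genes. They were Klf5 among 25 pluripotency genes, Lfng among 20 Notch genes, Atf3, Phgdh and Vldlr among 24 genes of the ATF4 stress response and amino acid metabolism, Sap30 and Mbd2 among 32 genes of class I HDAC complexes, and Rpl27 among 58 cytosolic ribosomal protein genes. The other 17 lists had none, and they include 39 Hox genes (1 with any HDAC1 gene-end peak), 38 neural progenitor genes (1), 21 neuron genes (3), 26 mesendoderm genes (1), 24 Nodal and TGF-beta genes (2), 21 BMP genes (2), 31 Wnt genes (1) and 20 FGF and ERK genes (6).

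Counted in the gene or within 10 kb of it, 17 list genes (3.53%) had a late-acetylated site, against 2.06% of all protein-coding genes. Those not yet named were Irx5, an Iroquois transcription factor gene of the neural plate, Rplp2, and the HDAC complex genes Hdac3, Sap18 and Mideas. For 3 of these the site was nearer another gene. The site 1969 bp from Irx5 was within 1 kb of the noncoding gene Crnde, the one 4581 bp from Rplp2 lay inside Pnpla2, 922 bp from its start, and the one 1026 bp from Hdac3 lay in Rell2, at an end of Rell2 and Fchsd1. Of the HDAC complex list 5 of 32 genes were counted this way, and 2 of them had the site at a gene end. Day 2 H3ac lay at an end of 30 of these 32 genes, against 41.0% of all protein-coding genes. The part of this in the count was not tested. Hdac3 is the deacetylase of the NCoR complex, Sap18 and Sap30 are Sin3-associated proteins, Mbd2 is a methyl-CpG binding subunit of NuRD and Mideas belongs to the mitotic deacetylase complex. At Sap30 the site on chromosome 8 (57487639 to 57487951) lay 65 bp inside the start and 398 bp from day 2 H3ac, with a day 6 peak of score 162.42. At Mideas it lay 131 bp from day 2 H3ac, with later scores of 254.67 and 123.31. Distances from day 2 H3ac at the 5 genes ran from 114 bp at Hdac3 to 1011 bp at Mbd2. Phgdh, the first enzyme of serine synthesis, and Vldlr, a lipoprotein receptor, had sites 156 and 29 bp from day 2 H3ac, with day 6 scores of 70.91 and 129.14.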

How the data were processed

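The deposited files list the peaks of 4 ChIP libraries, with no header. Reads were aligned with Bowtie 0.12.8 to mm10, per the submitters' processing notes. Peak names begin with MACS, while its version, cut-off and input use were not given in the sources used here. The deposited score of each peak is the authors' value, from 50 to at most 3100, with no scale stated. It served to rank and filter within a list. Read depth was not used here.

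Peaks on chromosomes 1 to 19 and X were kept, and starts were made 1-based. HDAC1 peaks were classed by overlap of at least 1 bp with each H3ac list. Genes were the 21631 protein-coding genes of a RefSeq table of GRCm38.p6, the assembly of mm10. It has no exons, so locations are gene ends, gene bodies or outside. Annotated starts with strand, from the RefSeq start sequences used here, covered 17274 of these genes and none on chromosome 18. Intervals are 95% Wilson intervals, and intervals of differences are Newcombe's. No p-value was computed. Code (Python 3.11.15) was tested on simulated peaks.

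Named sites were the 10 with the highest HDAC1, day 4 and day 6 scores, list genes, the 3 closest to and farthest from day 2 H3ac, and those next to the threshold, except for a result that is not reported here. Polq, Ecd, Aopep, Mrpl58, Meis2 and Mir124a-3 were added after their values were seen, as were the 10 kb count, which named Irx5, Rplp2, Hdac3, Sap18 and Mideas, the distances from annotated starts and the ETS shares within CpG-rich windows. Members, lists and motifs were chosen with earlier results of these data known.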

Additional observations from a re-analysis of the deposited data

How the results depend on the processing

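Of 38 recomputed values, 17 stayed within 1.5 times the reported count or inside the 95% interval of the reported share. With an overlap of 50% of the HDAC1 peak there were 383 sites, 69.2% of sites had day 2 H3ac within 1 kb and 59.3% had a later peak that reached it. The higher-scoring 50% of HDAC1 peaks gave 136 sites. The higher-scoring 50% of day 4 and day 6 peaks gave 164 sites, of which 53.7% had a later peak reaching day 2 H3ac and 20.1% had H3ac on both later days. The higher-scoring 50% of day 2 peaks gave 451 sites, with shares of 32.4% near day 2 H3ac and 25.7% reached. With the 5549 highest-scoring peaks of each H3ac list there were 445 sites, 74.6% at gene ends, 24.9% near day 2 H3ac and 22.2% reached. Requiring no day 2 peak within 1 kb left 132 sites, and within 5 kb 98. The gene-end share was 50.8% with a window of 0.5 kb and 82.0% with 2.5 kb. Chosen after seeing the data, leaving out the day 4 list gave 149 sites, 63.1% near day 2 H3ac and 60.4% reached, and leaving out the day 6 list gave 229 sites, 28.4% reached. The larger numbers with fewer day 2 peaks follow from how those lists were built. Likewise, shortening the HDAC1 list alone or the later H3ac lists alone can only lower the number of sites. The counts without a day 2 peak within 1 or 5 kb follow from the distances of the same 295 sites. These counts are among the 38 values and do not test whether the number of sites is stable. How many sites count as late-acetylated thus depends on the day 2 threshold, and peak lists without read depth cannot tell a weak day 2 signal from none. No paired analysis was possible because each target and day had 1 library.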
